A study of Rattus norvegicus with 34 samples.

Results

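Heat shock chaperones are proteins that bind unfolded or damaged proteins and keep them from clumping. The 9 genes described here were taken from a fixed list: the small heat shock proteins Hspb1, Hspb8 and Cryab, the J-domain protein Dnajb1, the HSP110 protein Hsph1, the constitutive HSP70 Hspa8, the HSP90 gene Hsp90aa1, and the mitochondrial chaperonin pair Hspd1 and Hspe1. They are 9 of the 21759 genes named on the array and were read by 10 probes, with 2 for Hsph1 and 1 for each of the others. The platform annotation named 8 of the genes, while Hspd1 and the second Hsph1 probe were named from the deposited probe descriptions.

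Small heat shock proteins hold unfolding proteins in a soluble state without using ATP, HSP70 refolds them with help from J-domain proteins and HSP110 exchange factors, and HSP90 finishes the folding of kinases and steroid receptors. HSPD1 and HSPE1 form a barrel and its lid inside mitochondria. The heat shock factor HSF1 switches on many of these genes by binding inverted repeats of the letters GAA, and in brain the small heat shock proteins are known as genes of reactive astrocytes and other glia as well as of stressed neurons.

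The samples were primary cortical neurons from embryos of Hooded Wistar rats (the strain field says Wistar), kept for 21 days in culture and then injured at their axon bundles. The embryos' age is given as gestation day 15 to 16 in one label and as embryonic day 17 in another. The injury was a knife cut or a stretch made with puffs of oxygen, but no label ties either method to the mild or to the severe groups. The groups were severe injury at 0 h (1 array) and at 8, 15, 24 and 48 h (3 arrays each), mild injury at 0, 8, 15, 24 and 48 h (3 arrays each), and uninjured control (6 arrays). Each time point pooled at least 12 wells, and cultures from 3 pregnancies were used, but the labels do not tie an array to a culture, so p-values measure the spread between arrays only.

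Each deposited value is a ratio of an array's signal to the mean of 3 arrays. In 18 arrays (the controls and mild 0 to 24 h) the divisor was control 1 to 3, and in the other 16 (mild 48 h and all severe arrays) it was the 3 arrays labelled mild 48 h. Severe arrays could therefore be set against mild 48 h, and mild 0 to 24 h against control, but not across these sets, so no severe array is compared here with an uninjured one. A further doubt touches the labels themselves: in the deposited signal table the arrays labelled mild 48 h stand at places 4 to 6, where control 4 to 6 stand in the ratio table, and 18 of 34 arrays change place between the tables. If the signal table keeps the order of the labels, every severe comparison below has uninjured arrays as its reference, the arrays labelled control 4 to 6 are mild 0 h ones, and those labelled mild 0, 8, 15 and 24 h are mild 8, 15, 24 and 48 h ones. The ratio table's labels were followed throughout. The 34 arrays lay on 4 chips. One array stood apart, the second severe 48 h array, where the median log2 ratio of 74 proteasome and oxidative phosphorylation genes was -0.63, against -0.01 to 0.33 in the other 11 severe arrays of 8 to 48 h and -0.10 to 0.05 in mild 48 h arrays. Values from a fit without that array, chosen after seeing the data, are given where they change the call of a named gene or move its difference by over 1.5 times and by at least 0.1. Ratios hold no absolute level, so they cannot show whether a marker of neurons or of another cell type was absent.

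The GAA repeats upstream of these genes are shown because the genes are known as targets of one factor and yet did not move together below. RefSeq promoters (rat build GRCr8) were found for 7 of the 9 genes. In the 250 bases before the start site, all 7 held GAANNTTC or TTCNNGAA, as did 13.547% of 33469 promoters; each of these motifs reads the same on both strands. The longer GAANNTTCNNGAA, read on both strands and overlapping the shorter motifs, was in 4 of the 7, Hsph1, Hspa8, Hspd1 and Hspe1, and in 0.663% of all promoters. Capitals mark the bases that match, and each stretch reads along the gene's own strand. Of 2 stretches found for Hsph1 the longer match is shown.
Hspb1, chr12:26432417-26432436, minus strand: actagaGAAGTTTCcagatg
Hspb1, chr12:26432397-26432416, minus strand: ggggcaGAACCTTCctggcc
Hspb8, chr12:45837279-45837298, plus strand: ccaggaGAAGTTTCtaggcg
Dnajb1, chr19:41431142-41431158, minus strand: ggggcgGAAGGTTCtgg
Hsph1, chr12:10427326-10427350, plus strand: cgcagaTTCTGGAAAGTTCtcctca
Hspa8, chr8:50080295-50080319, plus strand: gagcgtGAAAGTTCCAGAAcgctgc
Hspa8, chr8:50080453-50080477, plus strand: gaacccTTCTGGAAGGTTCtaagac
Hspe1, chr9:64084256-64084285, plus strand: gctcggTTCTAGAACCTTCCGGAAggcccc
Start sites are those of the RefSeq promoter table. Hspd1 and Hspe1 lie head to head on chromosome 9, with table start sites 290 bases apart, and the 18 matching bases printed for Hspe1 are the same bases that Hspd1 holds on the minus strand. The annotated genes span chr12:26430640-26432301 (Hspb1), chr12:45835899-45866449 (Hspb8), chr8:59989885-59995532 (Cryab), chr19:41427453-41431141 (Dnajb1), chr12:10427368-10446602 (Hsph1), chr8:50080514-50084376 (Hspa8), chr6:135523604-135529687 (Hsp90aa1), chr9:64073610-64084332 (Hspd1) and chr9:64084327-64087415 (Hspe1). The Hspd1 and Hspe1 spans overlap at their 5′ ends, and the windows searched for Hspd1 and Hspb8 lie inside the annotated spans of those genes. The files give no probe positions or sequences, so the exon or UTR that a probe reads, and its match to near-identical copies, were not examined.

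Severe and mild 48 h arrays were compared with limma on log2 ratios, and a gene was called past the threshold at a Benjamini-Hochberg adjusted p under 0.05 over all 21864 features. Hspb1 and Hspb8 were higher at every severe time, Hspe1 was lower at 48 h, and the other 6 genes did not pass at any time. The counts were 2 of 9 at 8, 15 and 24 h and 3 of 9 at 48 h. Among all features the shares past the threshold were 8.6% at 8 h, 10.8% at 15 h, 9.2% at 24 h and 11.2% at 48 h. The median difference of the 9 genes was 0.28, 0.22, 0.20 and 0.05 at 8, 15, 24 and 48 h, beside 0.01, 0.00, 0.02 and 0.00 for all features. Without the second severe 48 h array the counts were 5, 5, 4 and 5 of 9 at these times, beside 12.4%, 15.6%, 13.5% and 12.9% of all features.

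**Figure D1:**
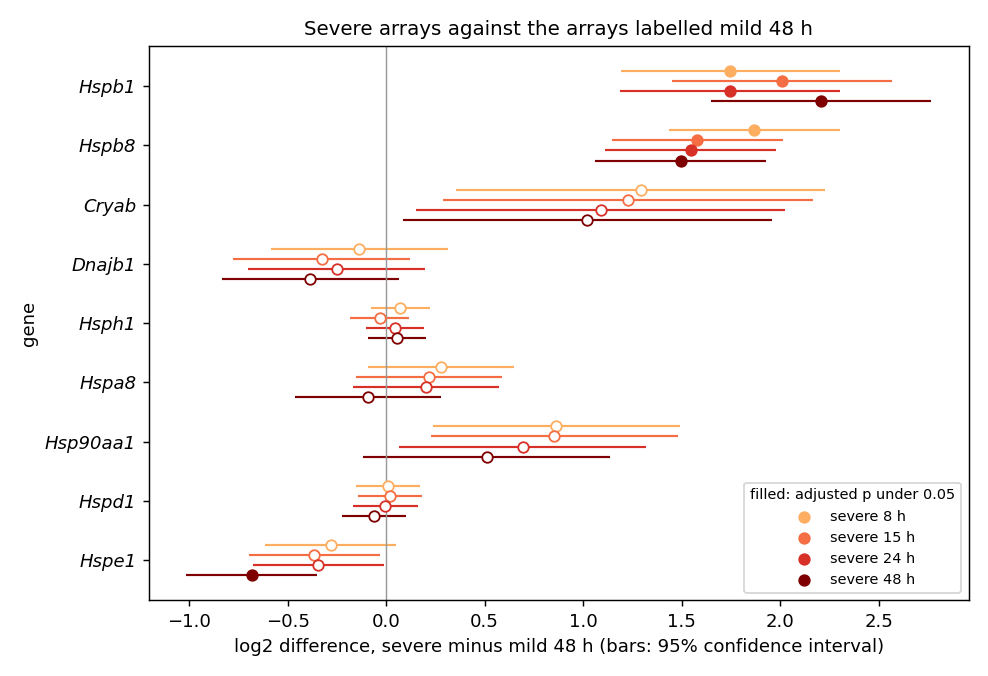
Log2 difference of each chaperone gene, severe injury minus mild 48 h (horizontal axis), at 4 times (colours), with 95% confidence intervals from limma and 3 arrays per group; filled points have an adjusted p under 0.05. Hspb1 and Hspb8 lie at 1.50 or above at every time, Cryab and Hsp90aa1 lie to the right of 0 with open points, and Hspe1 is filled only at 48 h.

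Hspb1, also called HSP27 or HSP25, is a small heat shock protein that binds actin and unfolded proteins. Its log2 ratio was 1.32, 1.96 and 1.95 in the severe 8 h arrays, 2.09, 1.99 and 1.93 in severe 15 h, 2.04, 1.10 and 2.09 in severe 24 h, and 2.56, 1.88 and 2.17 in severe 48 h, against -0.17, 0.14 and 0.02 in mild 48 h. All 12 severe arrays lay above the 3 mild 48 h arrays, and the lowest of them, the second 24 h array at 1.10, was still well clear. The difference was 1.75 at 8 h, 2.01 at 15 h, 1.75 at 24 h and 2.21 at 48 h (SE 0.26 each), that is 3.36-fold, 4.02-fold, 3.36-fold and 4.62-fold. The adjusted p-values from limma were 0.000863, 0.000281, 0.000833 and 0.00012.

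Hspb8, or HSP22, works with BAG3 in clearing misfolded proteins through autophagy. Its log2 ratio was 1.84, 2.19 and 1.56 in severe 8 h arrays, 1.62, 1.78 and 1.32 in severe 15 h, 1.34, 1.53 and 1.76 in severe 24 h, and 1.87, 1.17 and 1.42 in severe 48 h, against -0.17, 0.01 and 0.15 in mild 48 h. Again no severe array came down to the mild 48 h range. The difference was 1.87, 1.58, 1.55 and 1.50 (SE 0.20 each) at 8, 15, 24 and 48 h, with limma adjusted p-values of 7.25e-05, 0.000266, 0.000312 and 0.000355. Its partner Bag3, from the list of BAG proteins, had differences of 0.20, 0.02, -0.04 and -0.19 at the same times and did not pass (0.02 at 48 h without the second severe 48 h array).

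Cryab, or alphaB-crystallin, is a small heat shock protein abundant in lens, muscle and glia. It had 0.84, 0.87 and 2.15 in severe 8 h arrays, 0.89, 0.96 and 1.83 in severe 15 h, 1.43, 0.64 and 1.19 in severe 24 h, and 1.01, 0.21 and 1.84 in severe 48 h, against -0.11, -0.04 and 0.13 in mild 48 h. The groups did not overlap, but the severe arrays were spread over nearly 2 log2 units, from 0.21 to 2.15. Its differences of 1.29, 1.23, 1.09 and 1.02 (SE 0.43) did not pass, with limma adjusted p-values of 0.0984, 0.1, 0.167 and 0.182. With the second severe 48 h array kept out of the fit, chosen after seeing the data, the adjusted p was 0.042 at 8 h, 0.0451 at 15 h and 0.0821 at 24 h, and at 48 h the difference was 1.43 with an adjusted p of 0.0428.

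The single severe 0 h array already held these values, with 1.76 for Hspb1, 1.84 for Hspb8 and 1.83 for Cryab, but the group has no spread of its own, and it was not tested. A test for any difference among severe 8, 15, 24 and 48 h called 0% of all features and 0 of the 9 genes, with 0 of the 9 at an unadjusted p under 0.05. The largest difference between 2 severe times was 0.46 for Hspb1 and 0.37 for Hspb8, smaller than their difference from mild 48 h at any time.

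**Figure D2:**
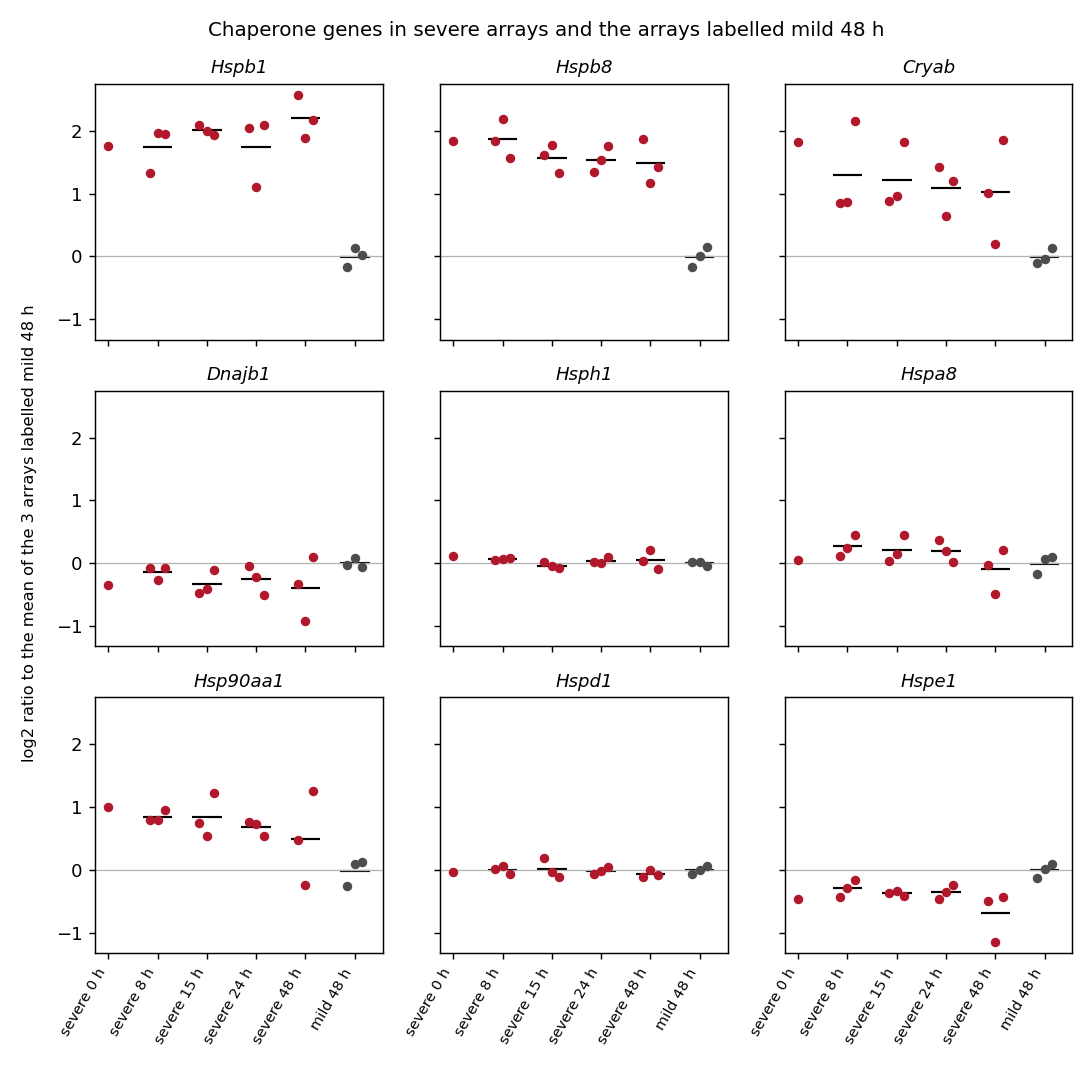
Log2 ratio of each chaperone gene in every severe array by time and in the arrays labelled mild 48 h, relative to the mean of those 3 mild 48 h arrays; points are arrays and bars are group means where there are 3. Hspb1, Hspb8 and Cryab lie above the mild 48 h arrays in all 13 severe arrays, including the single 0 h array, while Hsph1 and Hspd1 stay near 0.

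Hspb1 and Hspb8 kept their calls with chip as a block. The chips that held both a severe and a mild 48 h array gave the same order in single arrays: for Hspb1 the severe array minus the mild 48 h array was 1.30 at 8 h on chip 2, 2.25 at 15 h on chip 4 and 1.90 at 24 h on chip 1, and for Hspb8 it was 1.69, 1.79 and 1.33. No chip held a severe 48 h array beside a mild 48 h array. Most severe arrays, and all those of 48 h, lay on chip 3, which held no mild 48 h array. At 48 h the chip block therefore rests on severe arrays of other times on chips 1, 2 and 4.

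Other cell type markers differed between the same arrays. At severe 48 h against mild 48 h, 6 of 9 measured astrocyte markers, 7 of 11 oligodendrocyte markers and 6 of 6 ependymal and ciliated cell markers were higher, while 6 of 7 fibroblast and meningeal markers were lower and 1 of 11 neuron markers was lower (0 of 11 without the second severe 48 h array). The mean log2 ratio of the astrocyte list was 0.66 to 1.38 in the 12 severe arrays of 8 to 48 h, against -0.03 to 0.02 in mild 48 h. That of the oligodendrocyte list was 0.83 to 2.11 in severe arrays, against -0.04 to 0.04 in mild 48 h, and that of the fibroblast list was -4.76 to -2.38 in severe arrays, against -0.05 to 0.06 in mild 48 h. The ependymal and ciliated list had 2.01 to 4.11 in severe arrays, against -0.10 to 0.12 in mild 48 h. The neuron list ran from -1.55 to 0.40 in severe arrays, against -0.03 to 0.02 in mild 48 h, with a median difference of -1.05 at 48 h (-0.50 without the second severe 48 h array), so the severe arrays lay on both sides of the mild 48 h ones. The smooth muscle and pericyte list had -1.24 to -0.67 in severe arrays, against -0.05 to 0.04 in mild 48 h. Of the microglia, endothelial and smooth muscle lists 0 of 8, 1 of 5 and 1 of 6 measured genes passed at 48 h, both of those that did being lower in severe arrays. Those shifts were present in the severe 0 h array too, at 1.28 for astrocyte, 1.57 for oligodendrocyte, -3.39 for fibroblast, -0.96 for smooth muscle and -1.13 for neuron markers. Their part in the Hspb1, Hspb8 and Cryab differences was not tested, and in bulk samples fewer cells of a type and less RNA per cell cannot be told apart.

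Of the small heat shock protein list, 9 of 11 genes were measured. Hspb6, or HSP20, a small heat shock protein of muscle and astrocytes, had differences of 0.98, 1.17, 0.92 and 1.02 (SE 0.30) at 8, 15, 24 and 48 h and passed at 15 h (limma adjusted p = 0.0239) and at 48 h (0.0453). Without the second severe 48 h array it passed at 8 h (0.0143) and 24 h (0.0199) too. Its log2 ratio was 1.17, 0.34 and 1.56 in severe 48 h arrays, against -0.08, 0.03 and 0.04 in mild 48 h. Hspb2, which lies next to Cryab in the genome and is known from muscle, had a difference of -0.10 at 48 h (0.02 without that array), Hspb3 had 0.15, Hspb7 0.02 and Hspb9 0.03 (0.00 without it), and none of these 4 passed at 8, 15 or 48 h. The list as a whole had 2, 3, 2 and 3 genes higher and 0 lower at 8, 15, 24 and 48 h (4, 4, 3 and 4 higher without that array), with a median difference of 0.17 at 48 h.

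Hsp90aa1, the stress-inducible cytosolic HSP90, had 0.80, 0.80 and 0.96 in severe 8 h arrays, 0.76, 0.55 and 1.23 in severe 15 h, 0.77, 0.74 and 0.55 in severe 24 h, and 0.49, -0.24 and 1.25 in severe 48 h, against -0.26, 0.10 and 0.13 in mild 48 h. Every severe array of 8 to 48 h but 1 lay above the mild 48 h arrays, and the exception was the second 48 h array. The differences of 0.86, 0.85, 0.69 and 0.51 (SE 0.29) did not pass, with limma adjusted p-values of 0.0986, 0.0865, 0.192 and 0.349. With that array kept out, they passed at all 4 times (adjusted p = 0.0138, 0.0127, 0.0403 and, with a difference of 0.88 at 48 h, 0.0221). Its constitutive relative Hsp90ab1 had differences of -0.02, -0.05, 0.04 and -0.01 and did not pass, and of the 20 genes in the list of HSP90 and its co-chaperones 0 passed at any severe time by limma, with 2 of 20 at an unadjusted p under 0.05 at each time. Without that array 2 of the 20 were higher at each time.

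Hspe1, the lid of the mitochondrial chaperonin, was the only member called lower than mild 48 h, and with all arrays in the fit only at severe 48 h. The single severe 0 h array, not tested, stood at -0.46 for this gene. It had -0.43, -0.27 and -0.15 in severe 8 h arrays, -0.35, -0.33 and -0.41 in severe 15 h, -0.46, -0.34 and -0.24 in severe 24 h, and -0.49, -1.14 and -0.43 in severe 48 h, against -0.13, 0.02 and 0.09 in mild 48 h. All 12 severe arrays lay below all 3 mild 48 h arrays, by small margins except in the second 48 h array. The difference was -0.68 ± 0.15 (SE) at 48 h (limma adjusted p = 0.0107) and -0.28, -0.36 and -0.34 at 8, 15 and 24 h (0.4, 0.18 and 0.232). The 48 h call was lost without the third mild 48 h array (adjusted p = 0.0515), with chip as a block (0.0982) and after quantile normalization (0.0951). Without the second severe 48 h array the 48 h difference was -0.46 (adjusted p = 0.00657), and Hspe1 was lower at 8, 15 and 24 h as well (0.0496, 0.0113 and 0.0172).

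Hspd1, the barrel of that chaperonin, did not pass at any severe time. Its log2 ratio stayed between -0.11 and 0.19 in the 12 severe arrays, against -0.07 to 0.06 in mild 48 h, with differences of 0.01, 0.02, 0.00 and -0.06 (SE 0.08). Over the 16 arrays 14.2% of features had a smaller SD than this probe. A separate probe, for the predicted gene LOC497838, whose description cites the Hspd1 transcript, had -0.10, -0.85 and 0.08 in severe 48 h arrays, a difference of -0.29 ± 0.18 (SE), which did not pass (adjusted p = 0.402) and was -0.01 without the second array. Which of the 2 probes reads the main Hspd1 transcript is not settled by these files. Of 12 measured genes in the list of mitochondrial chaperones and proteases, 2 were lower at severe 48 h and 0 were higher: Hspe1, and Lonp1, a protease of the mitochondrial matrix, which had -0.74 ± 0.17 (SE, adjusted p = 0.0107). Without the second severe 48 h array Lonp1 was lower at 8 h (-0.41, adjusted p = 0.0258) and 24 h (-0.53, 0.00587) too.

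Dnajb1, or HSP40, the J-domain protein that hands unfolded proteins to HSP70, had -0.33, -0.92 and 0.09 in severe 48 h arrays, against -0.03, 0.08 and -0.05 in mild 48 h. The groups overlapped at 48 h, and the differences of -0.14, -0.33, -0.25 and -0.39 (SE 0.21) at 8, 15, 24 and 48 h did not pass. Without the second severe 48 h array the 48 h difference was -0.12. Of 21 measured J-domain genes, 1 passed at each severe time, Dnajc3, an ER helper of the HSP70 BiP, which had -0.99 ± 0.22 (SE) at 48 h (limma adjusted p = 0.0109). Without that array 2, 2, 1 and 2 were higher and 1, 2, 4 and 1 lower at 8, 15, 24 and 48 h, and Dnajc3 had -0.66 at 48 h.

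Hspa8, or HSC70, the constitutive HSP70, had -0.02, -0.48 and 0.22 in severe 48 h arrays, against -0.17, 0.06 and 0.10 in mild 48 h. Its differences were 0.28, 0.22, 0.20 and -0.09 (SE 0.17), and none passed; without the second severe 48 h array the 48 h value was 0.10. Probes of predicted copies of Hspa8 exist on the array; among them LOC500436 had -0.15 and Hspa8-ps17 had 0.13 at 48 h (0.16 and 0.37 without that array), and neither passed. Hsph1, the HSP110 that helps HSP70 let go of ADP, had 0.04, 0.21 and -0.09 in severe 48 h arrays, against 0.02, 0.01 and -0.04 in mild 48 h, with differences of 0.07, -0.03, 0.04 and 0.05 (SE 0.07; -0.02 at 48 h without that array). Each of its 2 probes stayed between -0.15 and 0.23 over all 34 arrays. Only 2.9% of features had a smaller SD than the mean of these probes over the 18 arrays, and 14.5% over the 16 arrays.

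Of the 10 measured genes of the HSP70 and HSP110 family, 2 were higher and 1 was lower at severe 48 h. Hspa4l, an HSP110 relative of Hsph1, had 1.65, 0.85 and 2.24 in severe 48 h arrays, against -0.05, 0.13 and -0.08 in mild 48 h, a difference of 1.58 ± 0.32 (SE, adjusted p = 0.0059). Hspa2, an HSP70 best known from the testis, had a difference of 1.09 ± 0.22 (adjusted p = 0.00586) and, without the second severe 48 h array, passed at 24 h too (0.71, 0.0198), and Hspa12b, a distant HSP70 of endothelial cells, had -0.94 ± 0.09 (adjusted p = 3.17e-05). The heat-inducible HSP70 gene Hspa1b had differences of -0.02, 0.05, -0.04 and -0.15 and did not pass.

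In each of the other lists 1 gene or 0 passed at severe 48 h, beside 11.2% of all features. Bag1, an exchange factor of HSP70, was lower by limma at -0.88 ± 0.20 (SE, adjusted p = 0.0133), 1 of 7 measured genes of its list. Without the second severe 48 h array Bag1 had -0.57 at 48 h (0.00572) and was lower at 8, 15 and 24 h too (-0.57, -0.53 and -0.61, with adjusted p of 0.00272, 0.00392 and 0.00153). Serpinh1, or HSP47, a collagen chaperone of fibroblasts, was lower at -0.48 ± 0.09 (adjusted p = 0.00425), 1 of 6 heat shock factors and regulators. Of 11 TRiC chaperonin and prefoldin genes 0 passed by limma at 48 h, with 2 at an unadjusted p under 0.05. The heat shock factor Hsf2 had a difference of 0.10 at 48 h (0.35 without that array) and did not pass.

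Dnajb1, Hspa8, Hsp90aa1 and Hspe1 were lowest of all severe arrays in the second 48 h array, at -0.92, -0.48, -0.24 and -1.14, where the 74 proteasome and oxidative phosphorylation genes also had their lowest median. Cryab and Hspb8 were also lowest of all severe arrays there, at 0.21 and 1.17, while Hspb1 had 1.88. When each array was centred on those 74 genes, 4 genes were higher at 8, 15 and 24 h (Hspb1, Hspb8, Cryab and Hsp90aa1), and at 48 h the same 4 were higher and Hspe1 was lower. Of all 21864 features, 2058, 2537, 2272 and 2424 passed at these times after centring, against 1881, 2367, 2012 and 2452 without centring. After centring the median difference of all features was -0.16 at 8 h, -0.10 at 15 h, -0.09 at 24 h and 0.09 at 48 h, beside 0.01, 0.00, 0.02 and 0.00 without it.

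**Figure D3:**
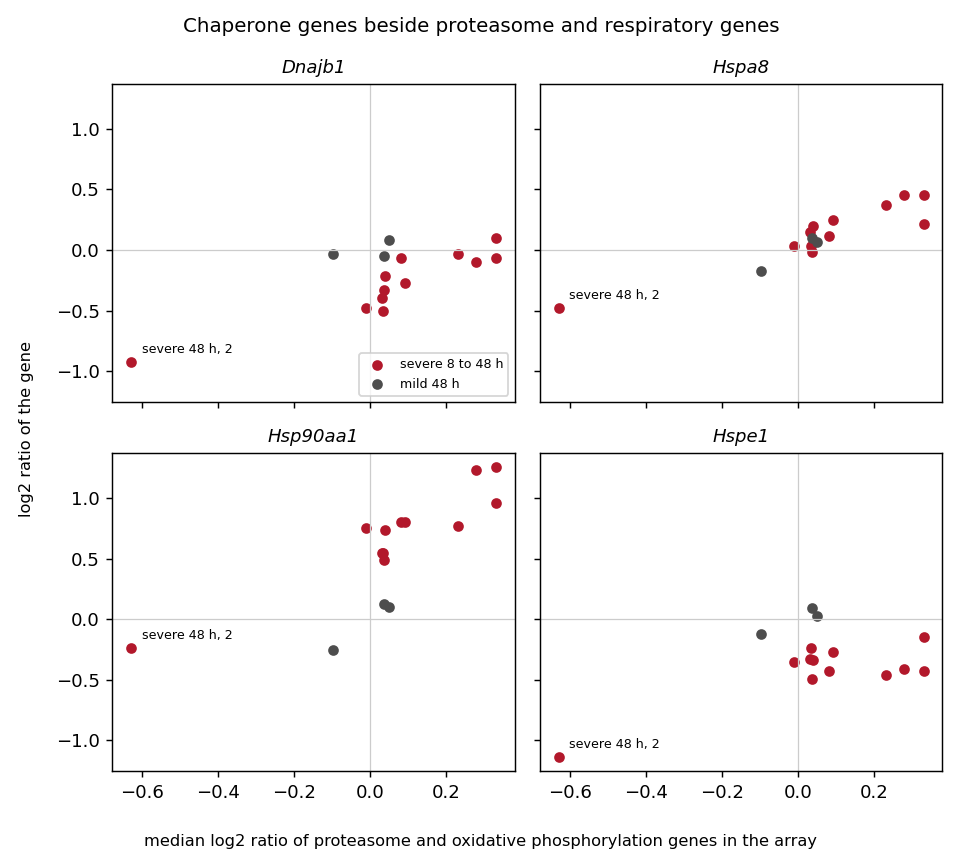
Log2 ratio of 4 chaperone genes (vertical axes) against the median log2 ratio of 74 proteasome and oxidative phosphorylation genes in the same array (horizontal axes), for 12 severe arrays of 8 to 48 h and 3 mild 48 h arrays, all relative to the mild 48 h mean. The second severe 48 h array is the lowest point of the severe arrays in every panel, at a median of -0.63.

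Mild injury was set against all 6 controls in the other 18 arrays. None of the 9 genes passed by limma at 0, 8, 15 or 24 h, where 1, 1, 3 and 1 of them had an unadjusted p under 0.05. The shares of all features past the threshold were 0% at mild 0 h, 0% at 8 h, 0% at 15 h and 0% at 24 h. The median difference of the 9 genes was 0.01, -0.07, -0.07 and 0.07 at 0, 8, 15 and 24 h, beside 0.02, 0.00, -0.01 and 0.00 for all features.

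Hspb1 came nearest. Its log2 ratio was 0.17, -0.05 and -0.19 in mild 0 h arrays, 0.39, -0.53 and 0.17 in mild 8 h, 1.02, 0.41 and 0.95 in mild 15 h, and 0.36, 0.35 and 0.52 in mild 24 h, against -0.14, 0.01, 0.12, -0.21, -0.13 and -0.02 in controls. The mild 15 h and mild 24 h arrays all lay above all 6 controls, while the mild 0 h and 8 h arrays overlapped them. At 15 h the difference was 0.86 ± 0.16 (SE), or 1.81-fold, with an unadjusted p of 4.57e-05, the fourth smallest of all features, and a limma adjusted p of 0.231. It passed without the second control array (adjusted p = 0.0207) and against control 4 to 6 alone (0.91, adjusted p = 0.00472). Of all features, 39 were higher and 359 lower in the first of these settings, and 161 higher and 2444 lower in the other. At 24 h the difference was 0.47 ± 0.16 (adjusted p = 0.999).

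Within chips the mild 15 h array stood above the controls of its chip by 0.56 on chip 1, which held 1 control, and by 0.97 on chip 2, which held 3. At 24 h these values were 0.49 and 0.54. Chip 4 held mild arrays and no control.

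Hspb8 had 0.37, 0.19 and 0.01 in mild 15 h arrays, against 0.01, -0.11, 0.10, -0.03, 0.10 and -0.02 in controls, and the groups overlapped. Its differences were -0.18, -0.20, 0.18 and 0.09 (SE 0.08) at 0, 8, 15 and 24 h, and none passed. Cryab had differences of -0.14, -0.17, -0.07 and 0.15 (SE 0.13), with 1 low mild 15 h array at -0.65.

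**Figure D4:**
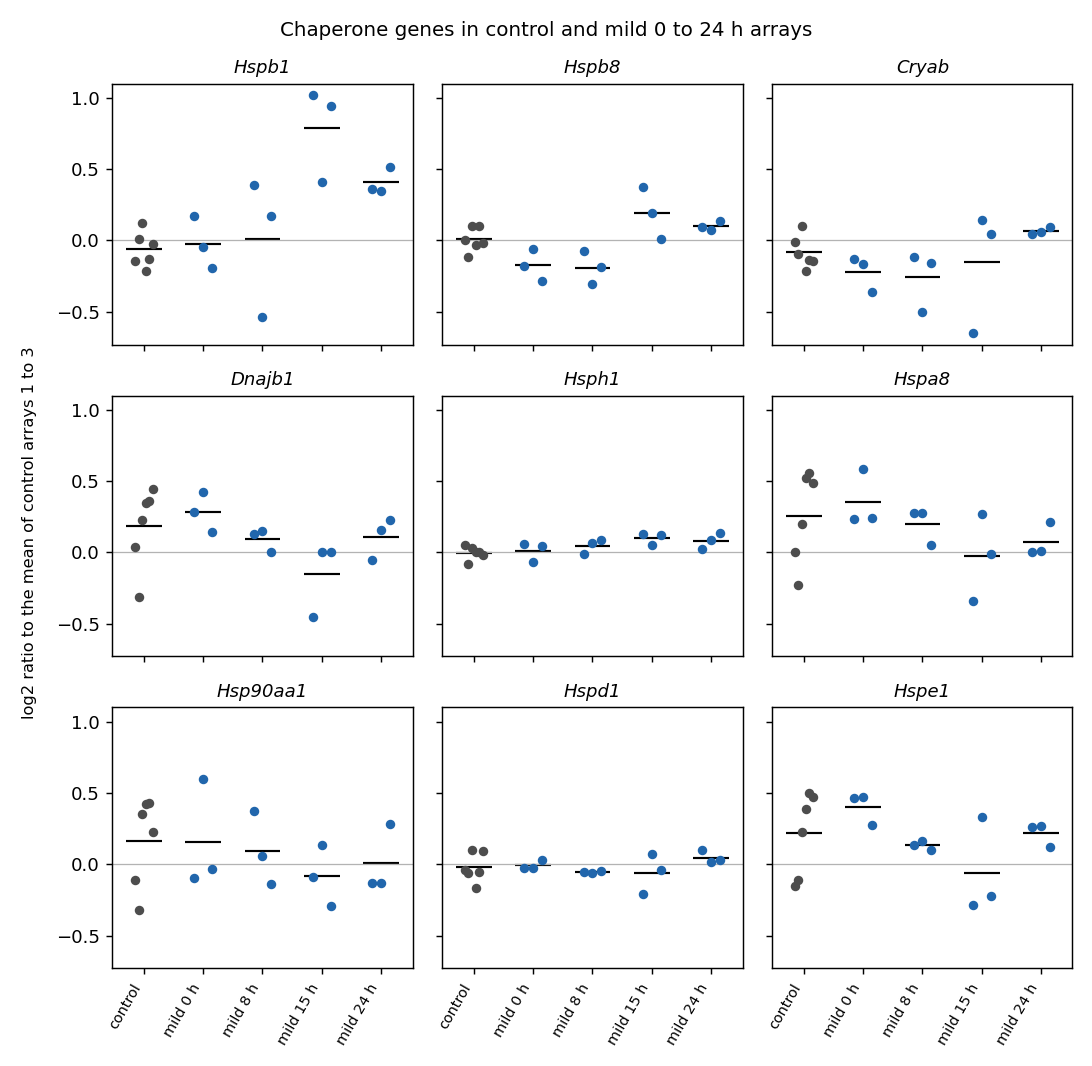
Log2 ratio of each chaperone gene in mild 0, 8, 15 and 24 h arrays (3 each) and, at the left of each panel, in the 6 control arrays, relative to the mean of control 1 to 3; points are arrays and bars are group means. Hspb1 lies above all controls at 15 and 24 h, and the controls of Dnajb1, Hspa8, Hsp90aa1 and Hspe1 spread more widely than those of Hspb1, Hspb8 and Cryab.

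For Dnajb1, Hspa8, Hsp90aa1 and Hspe1 the SD over the 6 controls was 0.28, 0.32, 0.31 and 0.29, and no mild difference passed against them. At mild 15 h the differences of these genes were -0.33, -0.28, -0.25 and -0.28, with SEs of 0.14, 0.16, 0.18 and 0.14. At mild 0 h the differences were 0.10, 0.10, -0.01 and 0.18. The first mild 15 h array was low for Dnajb1 at -0.45, for Hspa8 at -0.34 and for Hspe1 at -0.29. Against control 4 to 6 alone, mild 15 h was lower for Dnajb1 (-0.53, adjusted p = 0.00533), Hspa8 (-0.55, 0.00981) and Hspe1 (-0.51, 0.00964). With that reference 2605 of all 21864 features passed too, 161 higher and 2444 lower. Whether the chaperone genes differed from all features there was not tested. Against control 1 to 3 alone 0 of the 9 genes and 0 of all features passed. Hsph1 and Hspd1 differed from controls by 0.10 or less in size at every mild time.

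A test for any difference among mild 0, 8, 15 and 24 h called 0% of features and 0 of the 9 genes by limma, with 2 of the 9 at an unadjusted p under 0.05. These were Hspb1 (adjusted p = 0.206, largest difference between times 0.81) and Hspb8 (0.163, 0.38). A test of whether the step between 8 and 24 h differed between severe and mild injury, which does not depend on the divisors, called 0% of features and 0 of the 9 genes. Hspb8 alone had an unadjusted p under 0.05, with a severe step lower than the mild step by -0.61 ± 0.21 (SE, adjusted p = 1).

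The controls themselves differed in these genes. Control 4 to 6 minus control 1 to 3 gave 3 of 9 genes higher and 0 lower, beside 11.8% of all features past the threshold, of which 2518 were higher and 68 lower. Centred on the 74 proteasome and oxidative phosphorylation genes, 74 features were higher and 14094 lower, and with 1 control left out at a time 122 (without control 2) to 3407 features passed. Hspa8 had 0.52, 0.56 and 0.49 in control 4 to 6, against 0.00, -0.23 and 0.20 in control 1 to 3, a difference of 0.53 ± 0.13 (SE, limma adjusted p = 0.0184). Hspe1 had 0.39, 0.50 and 0.47 in control 4 to 6, against -0.15, -0.11 and 0.23 in control 1 to 3 (0.46 ± 0.12, adjusted p = 0.0239). Dnajb1 had 0.35, 0.36 and 0.45 in control 4 to 6, against 0.03, -0.31 and 0.23 in control 1 to 3 (0.40 ± 0.13, adjusted p = 0.0498). The groups did not overlap in these 3 genes, nor in Cryab, which was lower and did not pass by limma (-0.16, adjusted p = 0.556). How many of all features had no overlap was not counted.

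Those calls were lost with chip as a block (adjusted p = 0.178, 0.25 and 0.293 for Hspa8, Hspe1 and Dnajb1), without control 2 (0.134, 0.137 and 0.306), without control 5 (0.0696, 0.0858 and 0.112) and without control 6 (0.0562, 0.077 and 0.147). Hspe1 and Dnajb1 were also lost without control 1 (0.0863 and 0.082), and Dnajb1 without control 4 (0.092). The 74 proteasome and oxidative phosphorylation genes had a median of 0.36 to 0.39 in control 4 to 6, against -0.21 to 0.15 in control 1 to 3. Other markers moved there too: 4 of 11 neuron, 3 of 8 microglia and 4 of 7 fibroblast and meningeal genes were higher in control 4 to 6, and their part was not tested. Centred on the 74 genes, the 3 differences were 0.14, 0.08 and 0.01 and did not pass.

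Other chaperone lists had the same direction in control 4 to 6: 8 of 11 TRiC chaperonin and prefoldin genes, 10 of 21 J-domain genes, 7 of 12 mitochondrial genes and 6 of 20 genes of HSP90 and its co-chaperones were higher, and 0 were lower in each list. All features had that direction too, with 11.8% past the threshold, 2518 higher and 68 lower. With chip as a block 6 features passed, and after quantile normalization 18. The list counts are those of the main fit only. The small heat shock protein list had 0 of 9 past the threshold by limma, with 0 at an unadjusted p under 0.05. Hspb1 differed by -0.12, Hspb8 by 0.02 and Cryab by -0.16 there. LOC497838, the copy that cites Hspd1, was higher by 0.44 ± 0.11 (SE, adjusted p = 0.0188), while the Hspd1 probe differed by -0.04 ± 0.08.

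The genes whose log2 ratios ran most like those of the members were found over the 18 and the 16 arrays separately, as a description in arrays that share groups, chips and divisors. For Hspb1 they were the metallothionein Mt1 (Pearson r 0.89 over 18 arrays and 0.88 over 16), Tmbim1 (0.88 and 0.86) and Mfsd4a (0.84 and 0.83). For Hspb8 they were the glutathione transferases Gstm1 (0.82 and 0.87) and Gsta4 (0.82 and 0.84) and the cilium gene Enkur (0.80 and 0.86), which also stands in the ependymal and ciliated marker list.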

How the data were processed

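RNA of 34 samples was hybridised to Illumina RatRef-12 arrays of 22226 probes. The authors deposited linear ratios of signal and, in a second table, signal intensity values without sample names. Of all 5984 triples of arrays, 2 averaged 1 at every probe within 0.0001 and were taken as divisors. The 34 signal columns were given no sample and entered no comparison; set against the ratio columns, they gave the table order and how a ratio was made (signal divided by the array's median, then by the divisor mean). Background correction and detection are not given in the sources used here. Precision is limited by the number of arrays.

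Ratios were put on the log2 scale (3 values were at the smallest ratio, 0.01), probes of a gene were averaged, and limma 3.58.1 in R 4.3.3 fitted 1 mean per group within each divisor set, with Benjamini-Hochberg adjustment over 21864 features. The same fit was tested on simulated data. Alternatives were chip and replicate blocks, quantile normalization, centring, 1 fit of all arrays, the smallest ratio set missing, the most variable probe per gene, and leaving out each array. Replicate numbers were not taken as pairs, though among mild arrays each number went with 1 chip (1 with chip 4, 2 with chip 1, 3 with chip 2). Named genes were all members, up to 4 genes per pathway list past the threshold at severe 8 or 48 h or in a mild comparison, and the 3 most alike genes of a member, given for Hspb1 and Hspb8; Bag3, Hspa1b, Hsp90ab1, Hsf2, Hspb2, Hspb3, Hspb7, Hspb9 and the predicted copies were named after their values were seen. Members and lists were chosen with earlier results of these data known. Promoters were RefSeq windows of 250 bases.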

Additional observations from a re-analysis of the deposited data

How the results depend on the processing

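Counts below are chaperone genes past the threshold, of 9. With each array left out in turn, they were 2 to 2 at severe 8 h, 15 h and 24 h, 2 to 5 at severe 48 h, 0 to 1 at mild 15 h and 0 to 4 in control 4 to 6 against control 1 to 3. They were 0 to 0 at mild 0, 8 and 24 h, in both time courses and in the severe against mild step. The high count at severe 48 h came without the second severe 48 h array, when Cryab and Hsp90aa1 also passed. Of all features 2829 passed there, 1422 higher and 1407 lower. Without the third severe 48 h array Dnajb1 passed by limma (-0.63, adjusted p = 0.0351), beside 3264 of all features, 659 higher and 2605 lower. The control comparison fell to 0 without control 2, 5 or 6 and to 1 without control 1, and without the third control array Hsp90aa1 passed as well (0.58, adjusted p = 0.0481). Centring on proteasome and oxidative phosphorylation genes gave 4 at severe 8, 15 and 24 h, 5 at severe 48 h and 5 in the control comparison, where all 5 were lower, among them Hspb8, which reversed (-0.37, adjusted p = 0.0122, with 0.02 as deposited). A single fit of all 34 arrays gave 4 at severe 8 h and 15 h, and 0 in the control comparison. Keeping the second severe 48 h array out, added after seeing the data, gave 5, 5 and 4 at severe 8, 15 and 24 h, with Hsp90aa1 and Hspe1 at all 3 times and Cryab at 8 and 15 h. Control 4 to 6 alone as reference gave 4 at mild 15 h, where 2605 of all features passed (161 higher and 2444 lower). In the control comparison chip as a block gave 0 and quantile normalization gave 0. In the mild time course quantile normalization gave 1, Hspb8 (limma adjusted p = 0.0444), beside 92 of all features. The causes were not tested. With replicate number as a block, counts were 3, 3, 3 and 4 at severe 8, 15, 24 and 48 h, and 0 in mild comparisons. Of all features, 1854, 2337, 1989 and 2440 passed with that block at these severe times. At mild 0, 8, 15 and 24 h, 6, 3, 0 and 0 features passed. Cryab passed at those severe times (adjusted p = 0.0192, 0.0207, 0.041 and 0.0461). Same-numbered arrays of mild and control, or severe and mild 48 h, did not deviate together, with correlations of -0.56 to 0.22. The numbers were therefore not taken as pairs. Mild arrays among themselves, where each number goes with 1 chip, were not checked in this way. No replicate block was possible in the control comparison, which shares no numbers. Over all features, chip as a block called 813, 965, 909 and 906 at severe 8, 15, 24 and 48 h, a single fit of all arrays 2907, 3622, 3135 and 3729, and quantile normalization 1430, 1419, 1413 and 1225, against 1881, 2367, 2012 and 2452. Centring called 2058, 2537, 2272 and 2424 features at these severe times. The control comparison called 6 with chip as a block, 18 after quantile normalization, 6 in a single fit and 14168 after centring (74 higher and 14094 lower), against 2586 (2518 and 68). With all arrays but 1, mild 15 h called up to 398 features, without the second control array.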
